A study of Oryza sativa with 8 samples.

Results

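Cyclins, the cyclin-dependent kinases (CDKs) they activate and the histones that package new DNA were followed through 24 h of complete submergence in rice shoots, together with a gene named SMR1. Members were the genes whose symbol or synonym in the RefSeq table starts with a cyclin class (CYCA to CYCD, CYCF, CYCH, CYCL, CYCP, CYCT, CYCU), a kinase class (CDKA to CDKG) or H2A., H2B. or H3., or equals CenH3 or SMR1. Of 54 such genes, 43 were paired with a probe set of their own, among 17905 genes measured on the array. They comprised 25 cyclins, 11 kinases, 6 histones (5 H2B genes and CenH3) and SMR1. Each gene is represented by 1 probe set, the one with the highest mean over the 8 arrays. Of the 43 genes, 41 passed the filter on low values, and CYCB1-3 and CYCF2-2 did not, with values of 2.22, the lowest the table holds, on all 8 arrays.

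D-type cyclins act with CDKA at the entry into DNA replication, and A-type and B-type cyclins act with CDKA and CDKB later, up to mitosis. SIAMESE-RELATED proteins (SMR) and KRP proteins inhibit these complexes in plants. Other cyclins and CDKs serve transcription: CYCT with CDKC acts on elongating RNA polymerase II, CYCH with CDKD belongs to the general factor TFIIH, CYCC with CDKE to the Mediator, and CYCL with CDKG is tied to RNA splicing. Shoots of young rice plants hold dividing cells mainly at the base of the leaves and in the shoot tip, and H2B and the centromeric histone CenH3 are needed when chromosomes are copied.

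Messenger RNA was measured with Affymetrix rice arrays in the shoots (aerial tissue) of 2 rice genotypes, M202 and M202(Sub1). M202 is a japonica cultivar labelled as lacking Sub1A, and M202(Sub1) is M202 with an introgressed SUB1 region, labelled as carrying Sub1A, a gene for submergence tolerance, so a genotype difference covers the whole introgressed region. Plants of both genotypes grew in a greenhouse, 25 to a pot, for 14 d, and were either not submerged or put under 90 cm of water for 24 h. Each of the 4 groups had 2 arrays. The titles place controls at day 0 and submerged plants at day 1, so submergence cannot be told apart from 1 day of age, and the harvest hour of the controls is also unknown here. The replicates are described as independent and biological, with no word on what separated them, so p-values measure the spread between these samples.

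All levels are the deposited log2 values, all changes are differences of log2 group means ± SE (limma, n = 2 per group), and a gene is called where the adjusted p is below 0.05. Levels are compared only within a probe set, never between genes. Replicate arrays had a Pearson's r of 0.9976 to 0.9983 over the probe sets that passed the filter on low values. The 5 leaf markers had a summed level (log2) of 17.77 to 17.8 in non-submerged and 17.65 to 17.67 in submerged M202, and of 17.78 to 17.83 and 17.52 to 17.59 in M202(Sub1). Of 7 shoot meristem markers 4 lay within 0.1 of the floor on all 8 arrays, among them OSH1. The summed level of the 7 was 7.27 to 7.4 and 7.6 to 7.71 in M202 and 7.43 and 7.41 to 7.53 in M202(Sub1). That sum is mostly FON1, which read 6.95 to 7.48 and rose in M202 by 0.39 ± 0.09 (adjusted p = 0.0176), the only call among them after submergence. Of 5 root markers 3 lay at the floor, WOX11 and Lsi2 among them, and their summed level was 10.15 to 10.19 before and 10.25 to 10.36 after submergence in M202, and 10.2 to 10.24 before and 9.62 to 9.65 after in M202(Sub1). Lsi1, a root silicon transporter, had a called interaction of -0.76 ± 0.06 (adjusted p = 0.00361). The part of tissue makeup in the results was not tested, and in these bulk samples fewer cells of a type and less RNA per cell cannot be told apart.

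Submergence changed a large share of the array, so counts are read against that background. In M202 42.9% of the 34355 probe sets tested were called (22.9% higher, 20.0% lower), so that 53.5% of the calls were higher. In M202(Sub1) 48.9% were called (27.7% higher, 21.2% lower), and 56.6% of the calls were higher. The arrays were also centred on 36 control probe sets named for poly(A) spike-ins, bacterial RNAs meant to be added at labelling. Whether they were added to these samples is not shown here. With that centring the median of all probe sets moved from 0. It was then -0.19 in M202 and -0.40 in M202(Sub1). This centring moves all values of an array by the same amount, those at the floor included. A probe set at the floor before and after submergence can thus be counted as a fall. On that scale 6352 of the 34355 probe sets rose and 12710 fell in M202, so that 33.3% of the calls were higher. In M202(Sub1) 6362 rose and 20778 fell, and 23.4% of the calls were higher. Changes given below are relative to the deposited scale.

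Among the cyclins, 8 rose, 3 fell and 12 were not called in M202, where 22.9% of all probe sets rose and 20.0% fell. In M202(Sub1) 9 cyclins rose, 1 fell and 13 were not called, where 27.7% of all rose and 21.2% fell. The called shares of those tested were 47.8% and 43.5%, near the backgrounds of 42.9% and 48.9%. Median changes were 0.19 and 0.38, against 0 over all probe sets. On the spike-in scale 6 cyclins rose and 6 fell in M202, and 8 rose and 9 fell in M202(Sub1). The balance of directions thus depends on the scale. Cyclins near the floor, such as CYCA2-1 (2.23 to 2.26 on all arrays) and CYCD2-2 (2.22 to 2.32), can count as falls there by the shift alone.

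Of 9 D-type cyclins, 3 rose, 2 fell and 4 were not called in M202, where 22.9% of all probe sets rose and 20.0% fell. In M202(Sub1) 4 rose, 0 fell and 5 were not called, where 27.7% of all rose and 21.2% fell. CYCD4-1 read 3.98 and 4.32 in non-submerged M202, 6.28 and 5.85 in submerged M202, 4.09 and 4.84 in non-submerged M202(Sub1) and 6.49 and 6.26 in submerged M202(Sub1). Both submerged groups lay above both non-submerged groups, and the rise was 1.91 ± 0.31 in each genotype (adjusted p = 0.0055 and 0.00467). CYCD5-1 read 6.03 and 5.98 in non-submerged and 7.36 and 7.64 in submerged M202, and 6.36 and 6.08 against 7.4 and 7.02 in M202(Sub1). It rose by 1.49 ± 0.18 (adjusted p = 0.00179) and 0.99 ± 0.18 (adjusted p = 0.00707), with no overlap of groups. CYCD5-2 read 7.32 and 7.52 before and 8.31 and 8.41 after submergence in M202, and 7.62 and 7.42 before and 8.49 and 8.45 after in M202(Sub1). Its rise was close in both, 0.94 ± 0.10 and 0.95 ± 0.10 (adjusted p = 0.0012 and 0.000929), though a second probe set of the gene stayed between 2.22 and 2.29 on all arrays.

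The D-type genes that fell in M202 were CYCD3-1 and CYCD6-1. CYCD3-1 fell by 0.71 ± 0.14 (adjusted p = 0.0118), and its value in M202(Sub1) was -0.44 ± 0.14 (adjusted p = 0.0506). CYCD6-1 fell by 0.88 ± 0.18 in M202 (adjusted p = 0.0143), where its submerged arrays read 2.51 and 2.36, close to the floor. The M202 call of CYCD3-1 was lost without any 1 of 3 arrays (adjusted p 0.0563 to 0.0682) and that of CYCD6-1 without either submerged M202 array (adjusted p = 0.0505 and 0.0775). The remaining D-type genes, CYCD2-2, CYCD3-2 and CYCD4-2, were called in no contrast.

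CYCD5-3 differed in its response between genotypes. It read 7.25 and 7.14 before and 7.31 and 7.22 after submergence in M202, which overlap, and 7.07 and 7.08 before and 7.53 and 7.58 after in M202(Sub1), which do not. The change was 0.07 ± 0.06 in M202 (adjusted p = 0.396) and 0.48 ± 0.06 in M202(Sub1) (adjusted p = 0.00149), and the difference of these changes was 0.41 ± 0.08 (adjusted p = 0.0392). That interaction was no longer called without any 1 of 7 of the 8 arrays (adjusted p 0.0558 to 0.0949). On the spike-in scale the rise in M202(Sub1) was 0.09 (adjusted p = 0.458) and the interaction 0.21 (adjusted p = 0.342), and neither was called.

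A-type and B-type cyclins, which serve DNA replication and mitosis, gave no call in any contrast on the deposited scale, at 3 of 3 A-type and 3 of 4 B-type genes tested, where 42.9% and 48.9% of all probe sets were called after submergence. Joined with CDKB2-1 and CenH3, after their values were seen, they are 8 tested genes, of which 0 rose and 1 fell in M202 and none was called in M202(Sub1). With spike-in centring 0 rose and 2 fell in M202 (median -0.33), where 12710 of all 34355 probe sets fell (median -0.19). On that scale 0 rose and 6 fell in M202(Sub1) (median -0.60), where 20778 of all probe sets fell (median -0.40). Genes near the floor can count as falls there by the shift alone. CYCA2-1 and CYCB2-2 are such genes, the latter at 2.26 on both submerged M202(Sub1) arrays. CYCB1-1, a mitotic cyclin, read 5.58 and 4.96 in non-submerged and 5.05 and 5.16 in submerged M202, and 5.05 and 5.43 against 4.78 and 5.03 in M202(Sub1). The groups overlap in M202 but not in M202(Sub1), where the change was -0.34 ± 0.25 (adjusted p = 0.322); in M202 it was -0.16 ± 0.25 (adjusted p = 0.709). CYCB2-1 and CYCB2-2 stayed between 2.26 and 3.19 on all arrays, so a fall could hardly show above the floor of 2.22. CYCA1-4 lay between 7.63 and 8.0, with values of 0.20 ± 0.09 and 0.23 ± 0.09 (adjusted p = 0.129 and 0.0875), and CYCA2-1 lay at 2.23 to 2.26 throughout.

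P-type cyclins, relatives of the yeast cyclin Pho80 of phosphate signalling, included the cyclins with the largest changes in either direction in M202. CYCP2-1 read 6.53 and 6.82 in non-submerged and 4.3 and 4.73 in submerged M202, and 7.0 and 6.86 against 4.31 and 4.27 in M202(Sub1). It fell by 2.16 ± 0.18 in M202 (adjusted p = 0.000446) and by 2.64 ± 0.18 in M202(Sub1) (adjusted p = 0.000168), a 4.46-fold and a 6.22-fold fall. CYCP3-1 read 7.57 and 7.56 before and 10.03 and 10.17 after submergence in M202, and 7.83 and 7.89 before and 9.67 and 9.57 after in M202(Sub1). It rose by 2.53 ± 0.06 in M202 (adjusted p = 8.29e-06), 5.79-fold, and by 1.76 ± 0.06 in M202(Sub1) (adjusted p = 1.86e-05), 3.38-fold. The rise of CYCP3-1 was smaller in M202(Sub1) by 0.78 ± 0.09 (interaction -0.78, adjusted p = 0.00918), which was -0.98 on the spike-in scale, and its submerged level was -0.48 ± 0.06 relative to M202 (adjusted p = 0.00692). CYCP4-1 was not called, with 0.46 ± 0.19 and 0.38 ± 0.19 (adjusted p = 0.12 and 0.175).

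**Figure D1:**
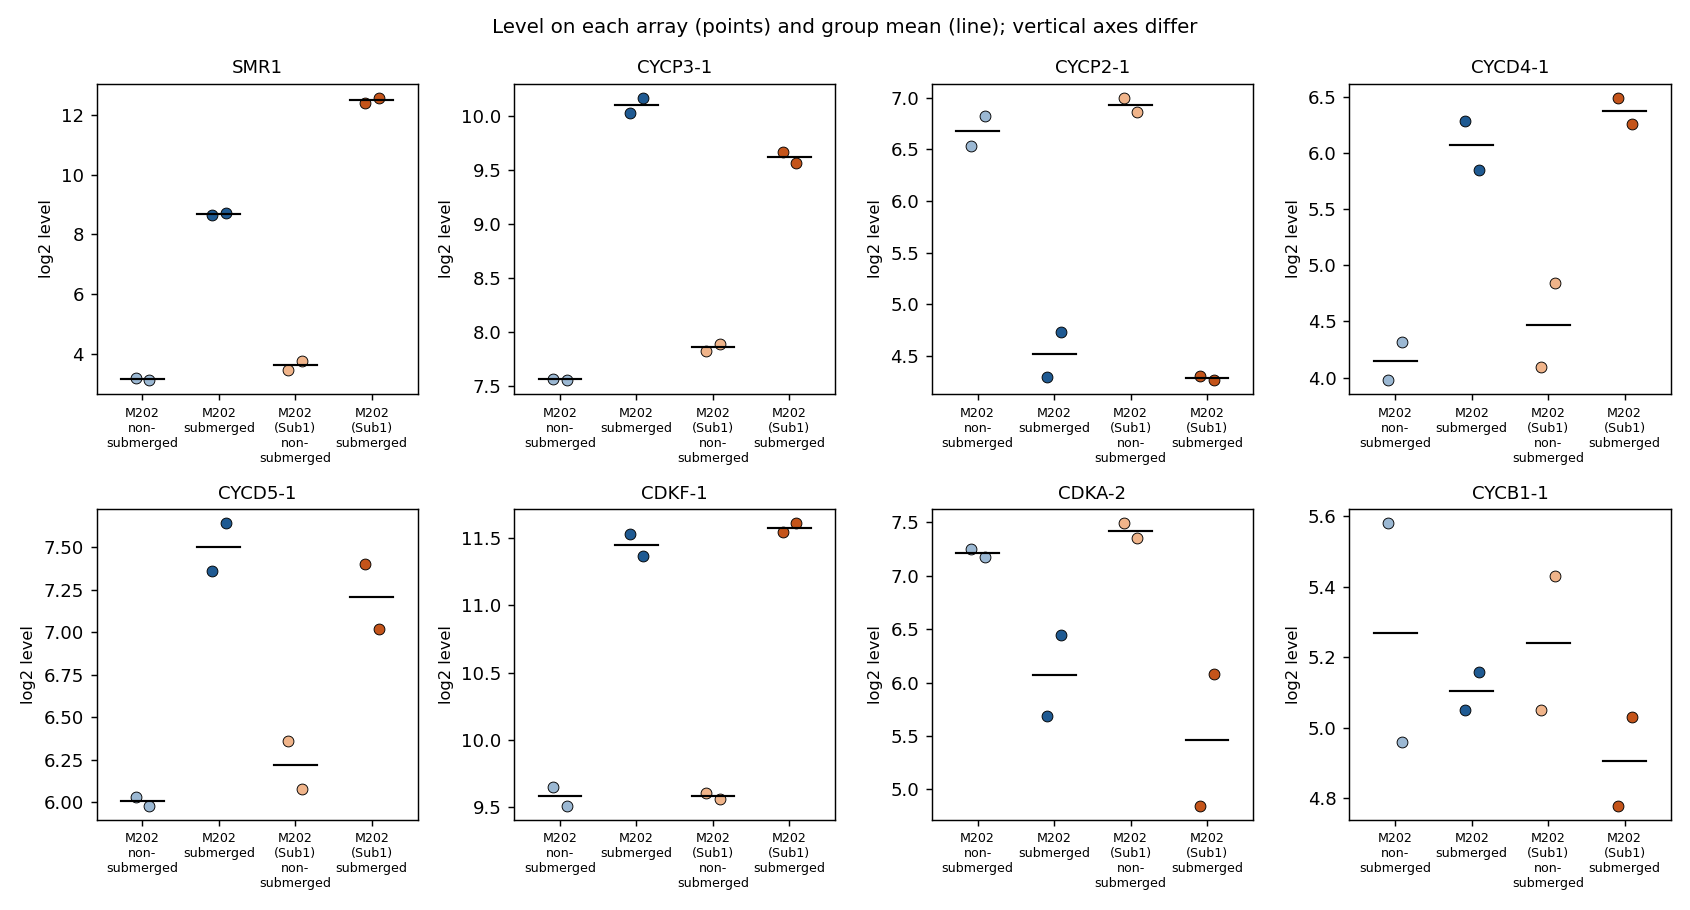
Log2 level (vertical axis, a separate scale in each panel) of 8 genes on each array (points) with group means (lines), by group. SMR1 read 3.14 to 3.77 on the 4 non-submerged arrays, 8.65 and 8.71 in submerged M202 and 12.39 and 12.57 in submerged M202(Sub1), while CYCP3-1 and CYCP2-1 moved in opposite directions.

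The C-, H-, L- and T-type cyclins and CDKC, CDKD, CDKE and CDKG, the cyclins and kinases of transcription and splicing, are 10 genes, all of them tested. They were joined by known role after their values were seen, so their count is a description only. In each genotype 9 of the 10 rose, 0 fell and 1 was not called, where 22.9% of all probe sets rose in M202 and 27.7% in M202(Sub1). Their median change was 0.51 in M202 and 0.92 in M202(Sub1). On the spike-in scale 6 rose in M202 (median 0.32) and 9 in M202(Sub1) (median 0.53), and 0 fell in either.

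The T-type cyclins had the largest changes among these cyclins. CYCT1-2 read 8.41 and 8.37 before and 9.53 and 9.28 after submergence in M202, and 8.4 and 8.34 before and 9.73 and 9.68 after in M202(Sub1). It rose by 1.02 ± 0.09 and 1.33 ± 0.09 (adjusted p = 0.000496 and 0.000145), 2.02-fold and 2.52-fold. CYCT1-4, whose entry also carries the name CYCT1-1, read 9.68 and 9.59 before and 10.56 and 10.64 after in M202, and 9.87 and 9.67 before and 11.07 and 11.16 after in M202(Sub1). It rose by 0.97 ± 0.08 and 1.34 ± 0.08 (adjusted p = 0.000518 and 0.000123). Their partner CDKC-1 read 7.57 and 7.59 before and 8.1 and 8.01 after in M202, and 7.68 and 7.5 before and 8.61 and 8.38 after in M202(Sub1). CDKC-1 rose by 0.47 ± 0.10 and 0.90 ± 0.10 (adjusted p = 0.0151 and 0.00112), and the M202 call was lost without any 1 of 3 arrays (adjusted p 0.0684 to 0.078) and on the spike-in scale (0.28, adjusted p = 0.0505).

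The cyclin H and CDKD pair of TFIIH moved by less. CYCH1-1 read 6.57 and 6.59 before and 6.96 and 7.07 after submergence in M202, and 6.34 and 6.42 before and 7.37 and 7.08 after in M202(Sub1). It rose by 0.44 ± 0.11 in M202 (adjusted p = 0.0261), a call lost without any 1 of 6 arrays (adjusted p 0.0542 to 0.116), and by 0.84 ± 0.11 in M202(Sub1) (adjusted p = 0.00197). CDKD-1 read 9.04 and 8.96 before and 9.42 and 9.37 after in M202, and 8.94 and 8.88 before and 9.61 and 9.63 after in M202(Sub1). Replicates of CDKD-1 lay within 0.1 of each other, and the gene rose by 0.39 ± 0.04 and 0.71 ± 0.04 (adjusted p = 0.00105 and 9.46e-05).

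CYCL1-1, of the splicing-linked class, read 9.26 and 9.31 before and 9.6 and 9.58 after submergence in M202, and 9.29 and 9.19 before and 9.9 and 9.78 after in M202(Sub1). It rose by 0.31 ± 0.06 and 0.60 ± 0.06 (adjusted p = 0.00838 and 0.000533). The M202 call was lost without replicate 1 of non-submerged M202 (0.28, adjusted p = 0.05 after rounding), and the value on the spike-in scale was 0.12 (adjusted p = 0.197). CDKG-1, of the kinase class that pairs with CYCL, read 8.91 and 8.86 before and 9.42 and 9.44 after in M202, and 8.83 and 8.75 before and 9.78 and 9.81 after in M202(Sub1). It rose by 0.54 ± 0.04 and 1.00 ± 0.04 (adjusted p = 0.000277 and 2.57e-05). CDKG-2 read 10.55 and 10.31 before and 11.34 and 11.31 after in M202, and 10.52 and 10.6 before and 11.44 and 11.57 after in M202(Sub1). Its rise was 0.90 ± 0.09 and 0.94 ± 0.09 (adjusted p = 0.000969 and 0.000639), whereas CYCC1-1, the Mediator cyclin and the exception among the 10 genes for the probe sets used, had 0.30 ± 0.15 and 0.45 ± 0.15 (adjusted p = 0.195 and 0.0581). Its other probe set was called, at 0.41 ± 0.12 and 0.40 ± 0.12 (adjusted p = 0.0485 and 0.0465).

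**Figure D2:**
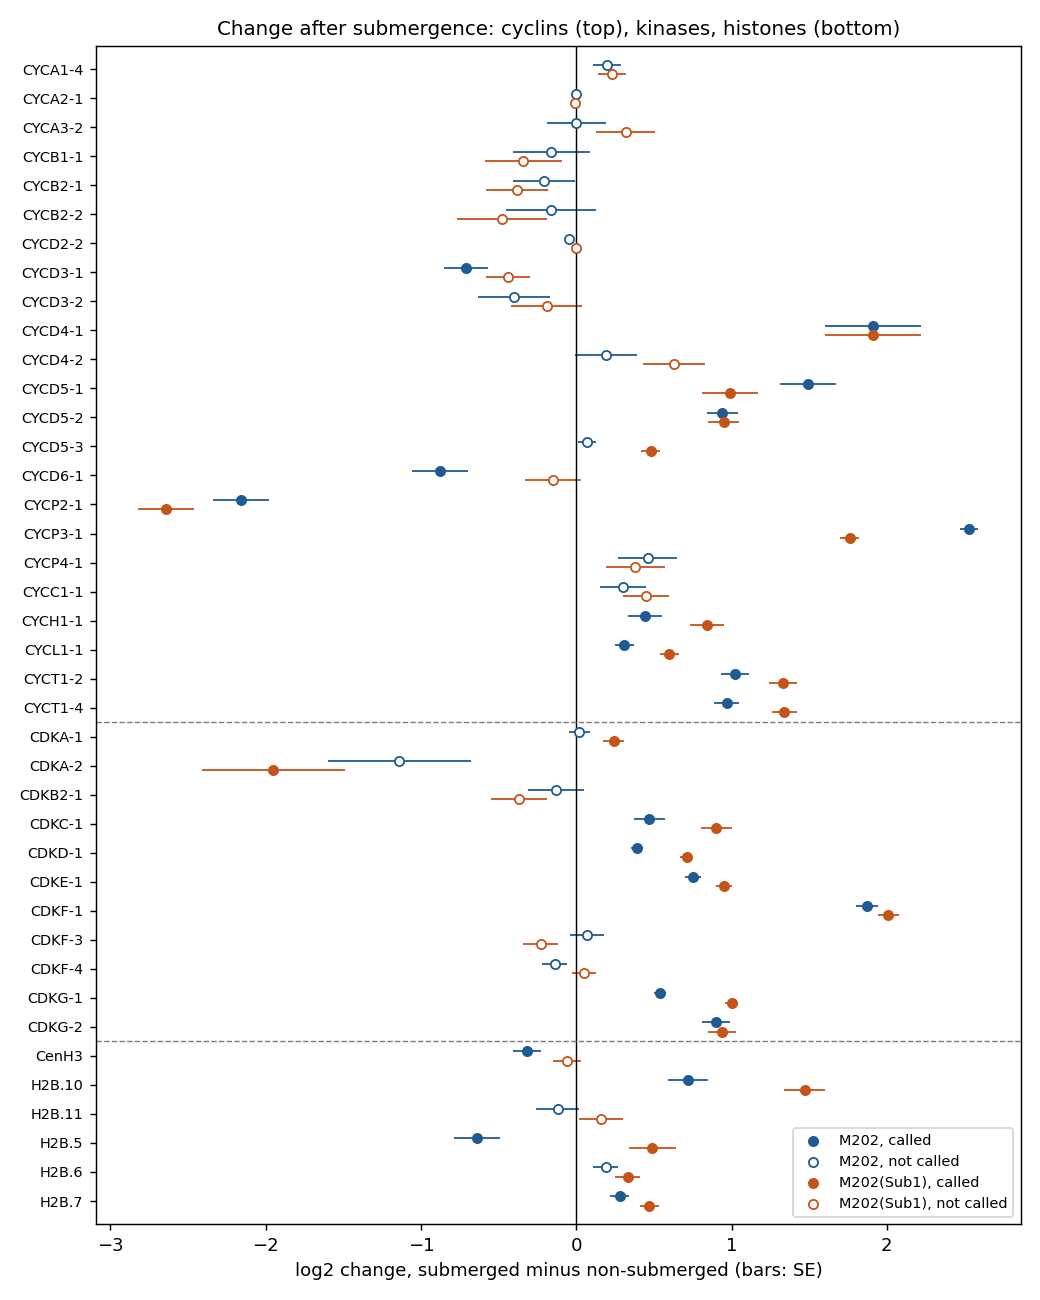
Log2 change after submergence (horizontal axis; bars are SE from the limma fit) for the 40 tested cyclins, kinases and histones, in M202 (blue) and M202(Sub1) (orange), with filled points for called changes. CYCP2-1 lies at -2.16 and -2.64, CYCP3-1 at 2.53 and 1.76, and A-type and B-type cyclins have open points throughout.

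The kinases as a class gave 6 that rose, 0 that fell and 5 not called in M202, and 7 that rose, 1 that fell and 3 not called in M202(Sub1). All 11 were tested, and the called shares were 54.5% and 72.7% against 42.9% and 48.9% of all probe sets. That background takes in probe sets near the floor, whereas no kinase read below 3.94, so the shares are not matched for level. The median change was 0.39 in M202 and 0.71 in M202(Sub1). With spike-in centring 5 rose and 2 fell in M202, and 6 rose and 4 fell in M202(Sub1).

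CDKF-1 had the largest rise among the kinases. In Arabidopsis CDKF phosphorylates and activates other CDKs. It read 9.65 and 9.51 before and 11.53 and 11.37 after submergence in M202, and 9.6 and 9.56 before and 11.55 and 11.61 after in M202(Sub1). The groups did not overlap, and the rise was 1.87 ± 0.07 (3.66-fold, adjusted p = 3.13e-05) and 2.01 ± 0.07 (4.01-fold, adjusted p = 1.95e-05). CDKF-3 and CDKF-4 were called in no contrast for the probe sets used, and CDKF-4 lay between 10.33 and 10.66 on all arrays. The other probe set of CDKF-4 fell in M202 by 0.53 ± 0.06 (adjusted p = 0.00171) and had a called interaction of 0.40 ± 0.09 (adjusted p = 0.0482).

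The CDKA and CDKB genes, whose products act in the cell cycle itself, gave changes in both directions. CDKA-2 read 7.25 and 7.18 before and 5.69 and 6.45 after submergence in M202, and 7.49 and 7.35 before and 4.85 and 6.08 after in M202(Sub1). The submerged arrays of a group lay far apart, so the change of -1.14 ± 0.46 in M202 was not called (adjusted p = 0.117), while in M202(Sub1) CDKA-2 fell by 1.95 ± 0.46 (adjusted p = 0.0193). Without either non-submerged M202(Sub1) array this call was lost (adjusted p = 0.0768 and 0.0888). The other 2 probe sets of CDKA-2 fell in both genotypes, by 1.03 ± 0.19 and 1.35 ± 0.29 in M202 (adjusted p = 0.00851 and 0.0162) and by 1.46 ± 0.19 and 1.13 ± 0.29 in M202(Sub1) (adjusted p = 0.00186 and 0.0265).

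CDKA-1, the other gene of the CDKA class, read 9.04 and 8.91 before and 9.01 and 8.97 after submergence in M202, and 8.84 and 8.82 before and 8.99 and 9.15 after in M202(Sub1). Its value was 0.02 ± 0.07 in M202 and it rose by 0.24 ± 0.07 in M202(Sub1) (adjusted p = 0.033). On the spike-in scale that value was -0.15 (adjusted p = 0.11), and it was not called without any 1 of 5 arrays (adjusted p 0.0641 to 0.124). CDKB2-1, a mitotic kinase, read 4.5 and 4.52 before and 4.4 and 4.36 after in M202, and 4.43 and 4.69 before and 4.43 and 3.94 after in M202(Sub1). It was not called, with -0.13 ± 0.18 and -0.37 ± 0.18 (adjusted p = 0.661 and 0.163), but was called without replicate 1 of submerged M202(Sub1) (-0.62, adjusted p = 0.024) and on the spike-in scale (-0.77, adjusted p = 0.0093).

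CDKE-1, the Mediator kinase, was measured by 2 probe sets that disagree in size. The one used read 9.89 and 9.81 before and 10.56 and 10.63 after submergence in M202, and 9.77 and 9.87 before and 10.75 and 10.78 after in M202(Sub1). It rose by 0.75 ± 0.05 (adjusted p = 0.00022) and 0.95 ± 0.05 (adjusted p = 7.35e-05). The second read 3.14 and 3.2 before and 14.13 and 14.26 after in M202, and 3.39 and 3.34 before and 14.66 and 14.67 after in M202(Sub1). Its change of 11.03 ± 0.05 was number 5 from the top of all 34355 probe sets in M202, and its change of 11.30 ± 0.05 in M202(Sub1) was number 9. Both probe sets rose in both genotypes, by sizes that differ far beyond their SEs, and which one follows the transcript of CDKE-1 was not tested. CDKG-2 also had probe sets that differ, at 0.85 ± 0.12 and 0.05 ± 0.18 in M202 and 1.61 ± 0.12 and 0.45 ± 0.18 in M202(Sub1) for those not used.

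**Figure D3:**
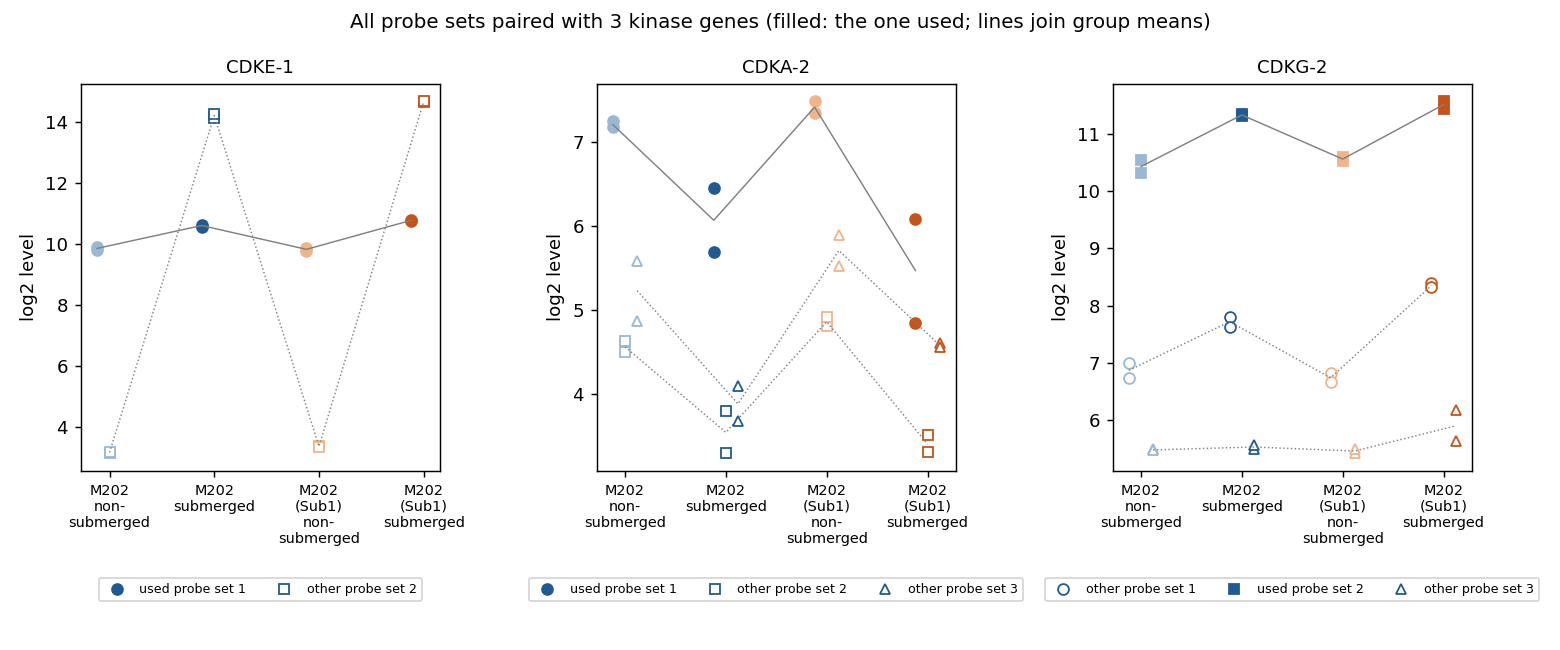
Log2 level (vertical axis) on each array for every probe set paired with CDKE-1, CDKA-2 and CDKG-2, by group, with filled symbols for the probe set used and lines joining group means. The second CDKE-1 probe set goes from 3.14 to 3.39 on non-submerged arrays to 14.13 to 14.67 on submerged ones, and all 3 CDKA-2 probe sets have lower means after submergence.

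SMR1 had the largest change of the 41 tested genes for the probe sets used, below the second CDKE-1 probe set. It read 3.21 and 3.14 in non-submerged M202, 8.65 and 8.71 in submerged M202, 3.47 and 3.77 in non-submerged M202(Sub1) and 12.39 and 12.57 in submerged M202(Sub1). Every submerged array lay above every non-submerged array, and those of M202(Sub1) lay above those of M202. The rise was 5.51 ± 0.12 in M202 (45.6-fold, adjusted p = 6.53e-06) and 8.86 ± 0.12 in M202(Sub1) (465-fold, adjusted p = 1.85e-06). The response was larger in M202(Sub1) by 3.35 ± 0.17 (10.2-fold, adjusted p = 0.00144), number 34 from the top of all 34355 probe sets, and 3.15 on the spike-in scale. Before submergence the genotypes differed by 0.44 (adjusted p = 0.23), and after it by 3.80 ± 0.12 (adjusted p = 0.000139). The table gives only the name SMR1, which in plants is used for SIAMESE-RELATED inhibitors of CDKs, and the function of this rice gene was not checked.

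EL2, an inhibitor of the SIAMESE type in rice and outside the named classes, belongs to a list of 36 other genes of the cell cycle, DNA replication and chromatin assembly. It read 6.4 and 6.35 before and 8.96 and 8.81 after submergence in M202, and 6.43 and 5.86 before and 9.31 and 9.35 after in M202(Sub1). EL2 rose by 2.51 ± 0.19 (adjusted p = 0.000331) and 3.18 ± 0.19 (adjusted p = 0.00011), and its interaction of 0.67 was not called (adjusted p = 0.199). Of the 36 listed genes 32 were tested, and 9 rose and 4 fell in M202 while 14 rose and 2 fell in M202(Sub1), 40.6% and 50.0% of those tested against 42.9% and 48.9% of all probe sets. With spike-in centring 7 rose and 9 fell in M202, and 6 rose and 14 fell in M202(Sub1). The listed genes tested include some near the floor, such as MCM6 and polD2 (2.23 to 2.26 on all arrays). Such genes can count as falls on that scale by the shift alone.

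KRP6, a CDK inhibitor of the KRP family in that list, rose by 0.60 ± 0.06 and 0.65 ± 0.06 (adjusted p = 0.00123 and 0.000707). KRP1 of the same family fell in both genotypes, with -0.39 ± 0.08 and -0.40 ± 0.08 (adjusted p = 0.0141 and 0.0115). KRP4 and KRP5 were called in no contrast. Among the replication genes, RPA32-2, a subunit of the single-strand DNA binding protein, rose by 0.68 ± 0.08 and 0.97 ± 0.08 (adjusted p = 0.00159 and 0.000336). RPA32, a gene for the same subunit, fell in M202 by 1.34 ± 0.27 (adjusted p = 0.0121) and had -0.75 ± 0.27 in M202(Sub1) (adjusted p = 0.0724). RPA70c, of the large subunit, rose in M202(Sub1) by 0.81 ± 0.25 (adjusted p = 0.0496) and had 0.46 ± 0.25 in M202 (adjusted p = 0.242). RPA14, of the small subunit, rose by 0.59 ± 0.03 in M202 and 0.24 ± 0.03 in M202(Sub1) (adjusted p = 0.000108 and 0.0026), with an interaction of -0.36 ± 0.05 (adjusted p = 0.0133). The listed RPA genes thus had calls in both directions.

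FEN1B, a flap endonuclease of replication and repair, rose by 0.54 ± 0.08 and 0.89 ± 0.08 (adjusted p = 0.0038 and 0.00047). MCM2, of the replicative helicase, rose in M202 by 0.85 ± 0.11 (adjusted p = 0.00272) and had 0.17 ± 0.11 in M202(Sub1) (adjusted p = 0.296), and between submerged genotypes it was -0.74 ± 0.11 relative to M202 (adjusted p = 0.0121). RBR1, a retinoblastoma-related repressor of entry into DNA replication, read 2.28 and 2.28 before and 3.44 and 3.46 after submergence in M202, and 2.27 and 2.27 before and 3.15 and 2.46 after in M202(Sub1). It rose in M202 (adjusted p = 0.00914) and was not called in M202(Sub1) (adjusted p = 0.109), and since its non-submerged arrays lay at the lowest values of the probe set, no size is given. ORC4, of the origin recognition complex, read 4.28 and 3.83 before and 3.98 and 3.92 after in M202, and 3.6 and 4.1 before and 5.78 and 5.6 after in M202(Sub1). It rose in M202(Sub1) by 1.84 ± 0.22 (adjusted p = 0.00154), with an interaction of 1.94 ± 0.31 (adjusted p = 0.0231). CKS1, a small protein that binds CDKs, read 9.54 and 9.43 before and 9.1 and 9.0 after in M202, and 9.28 and 9.24 before and 9.67 and 9.58 after in M202(Sub1). It fell by 0.44 ± 0.06 in M202 (adjusted p = 0.00284) and rose by 0.37 ± 0.06 in M202(Sub1) (adjusted p = 0.00442), with an interaction of 0.80 ± 0.08 (adjusted p = 0.00764). In M202(Sub1) the rises of CKS1 and RPA14 were smaller than the shift of the median to -0.40 on the spike-in scale. Their direction there is given for the deposited scale only.

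The histones split in M202, where 2 rose, 2 fell and 2 were not called (22.9% of all probe sets rose and 20.0% fell), and in M202(Sub1) 4 rose, 0 fell and 2 were not called (27.7% and 21.2% of all). All 6 were tested, and the called share was 66.7% in each genotype, against 42.9% and 48.9% of all probe sets. Probe sets near the floor are part of that background, whereas no histone read below 3.59, so these shares are not matched for level either. The median change was 0.04 and 0.40. No measured gene carried an H2A. or H3. name. After spike-in centring 1 rose and 3 fell in M202 and 1 rose and 1 fell in M202(Sub1). On chromosome 1, 4 of the H2B genes lie near each other, with 5 genes between H2B.10 and H2B.7, 2 between H2B.7 and H2B.6 and 1 between H2B.6 and H2B.5, while 3506 genes lie between H2B.5 and H2B.11. H2B genes are alike in sequence and can hybridise to each other's probes, so it is uncertain which gene a probe set reads.

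H2B.10 had the largest rise of the histones. It read 8.57 and 8.68 before and 9.5 and 9.19 after submergence in M202, and 8.81 and 8.63 before and 10.26 and 10.12 after in M202(Sub1). The rise was 0.72 ± 0.13 (adjusted p = 0.00759) and 1.47 ± 0.13 (adjusted p = 0.000411), and the difference of 0.75 ± 0.18 was not called (adjusted p = 0.0612). H2B.5 moved in opposite directions in the 2 genotypes on the deposited scale. It read 12.5 and 12.51 before and 12.06 and 11.67 after in M202, and 12.63 and 12.4 before and 13.08 and 12.92 after in M202(Sub1). It fell by 0.64 ± 0.15 in M202 (adjusted p = 0.0231) and rose by 0.49 ± 0.15 in M202(Sub1) (adjusted p = 0.0499), and the difference was 1.13 ± 0.22 (adjusted p = 0.0358). With spike-in centring it fell by 0.83 in M202 (value -0.83, adjusted p = 0.000203), had 0.09 in M202(Sub1) (adjusted p = 0.447, not called) and kept a called interaction of 0.92 (adjusted p = 0.00444). These calls were lost without any 1 of 3 arrays in M202 (adjusted p 0.0603 to 0.0998), of 6 in M202(Sub1) (0.0716 to 0.212) and of 7 for the interaction (0.0509 to 0.107), and with no filter on low values the interaction had an adjusted p of 0.0806.

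H2B.7 read 11.24 and 11.39 before and 11.62 and 11.59 after submergence in M202, and 11.4 and 11.41 before and 11.91 and 11.82 after in M202(Sub1). It rose by 0.28 ± 0.06 and 0.47 ± 0.06 (adjusted p = 0.0134 and 0.00177), sizes that were 0.09 and 0.07 on the spike-in scale and not called there, and the M202 call was lost without either submerged M202 array (adjusted p = 0.0534 and 0.0684). H2B.6 read 11.63 and 11.78 before and 11.94 and 11.86 after in M202, and 11.86 and 11.72 before and 12.18 and 12.06 after in M202(Sub1). Its value was 0.19 ± 0.08 in M202 (adjusted p = 0.132) and it rose by 0.33 ± 0.08 in M202(Sub1) (adjusted p = 0.0222), which was -0.06 on the spike-in scale and was not called without replicate 2 of non-submerged or replicate 1 of submerged M202(Sub1) (adjusted p 0.103 to 0.108). H2B.11 was called in no contrast, with -0.12 ± 0.14 and 0.16 ± 0.14. CenH3, which marks centromeres, read 4.21 and 3.98 before and 3.83 and 3.72 after in M202, and 3.71 and 3.71 before and 3.59 and 3.71 after in M202(Sub1). CenH3 fell by 0.32 ± 0.09 in M202 (adjusted p = 0.0463), a call lost without any 1 of 7 arrays (adjusted p 0.069 to 0.18), and its value was -0.06 ± 0.09 in M202(Sub1) (adjusted p = 0.688).

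**Figure D4:**
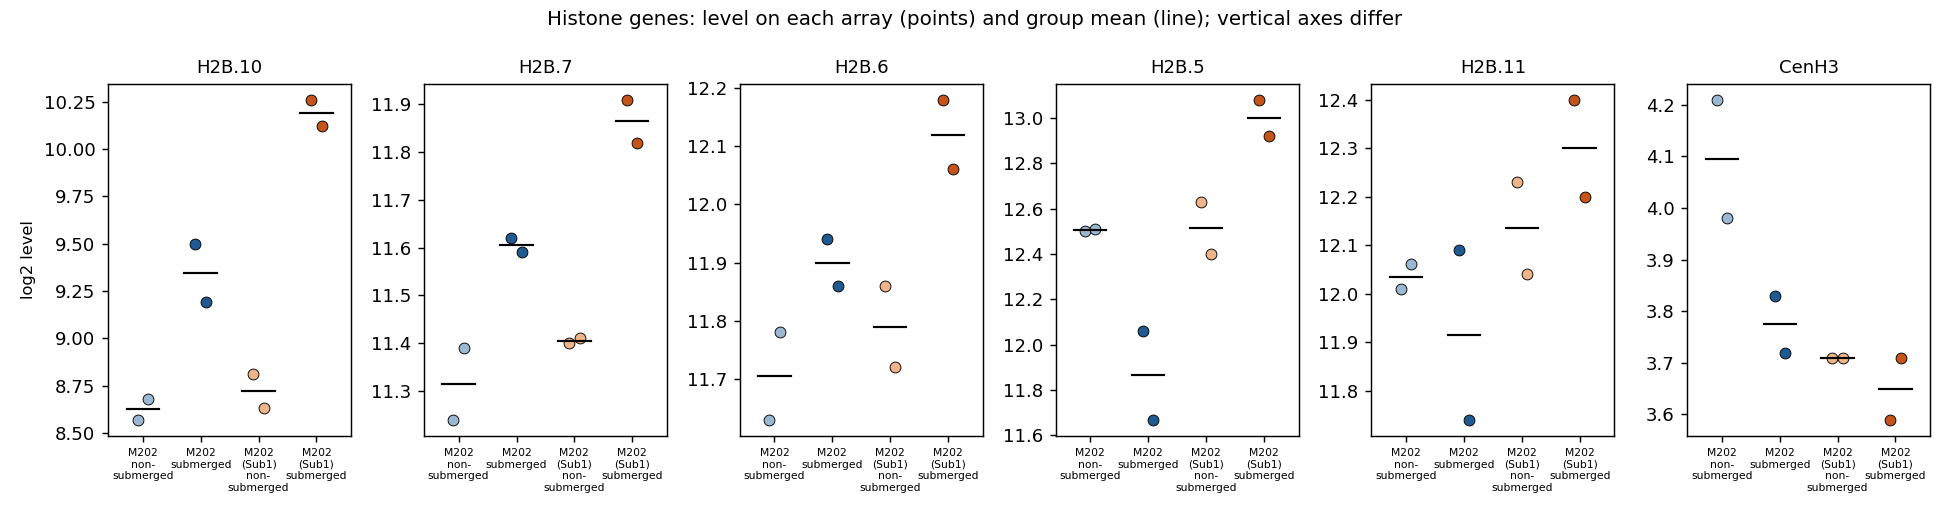
Log2 level (vertical axis, a separate scale in each panel) of the 6 histone genes on each array (points) with group means (lines), by group. H2B.5 fell in M202 from about 12.5 to 12.06 and 11.67 and rose in M202(Sub1) to 13.08 and 12.92 (a change of 0.09 and not called after spike-in centring), while H2B.10 rose in both.

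Between non-submerged plants of the 2 genotypes 1.91% of all probe sets were called (0.684% higher and 1.23% lower in M202(Sub1)), and 0 of 23 cyclins, 0 of 11 kinases and 0 of 6 histones tested with limma. At an unadjusted p under 0.05 the counts were 2, 0 and 1. In submerged plants 20.7% of all probe sets were called, 10.6% higher and 10.1% lower in M202(Sub1). Of these calls 51.1% were higher, which was 10.2% on the spike-in scale with the median of all probe sets at -0.25. There 3 cyclins were higher and 1 was lower in M202(Sub1), 3 kinases were higher, and 3 histones were higher, that is 17.4%, 27.3% and 50.0% of those tested. With spike-in centring 1 cyclin was higher and 4 were lower, 0 kinases were higher and 1 was lower, and 2 histones were higher and 0 were lower. CYCT1-4 was higher by 0.52 ± 0.08 (adjusted p = 0.0139), CDKC-1 by 0.44 ± 0.10 (adjusted p = 0.0385), CDKG-1 by 0.37 ± 0.04 (adjusted p = 0.00412; other probe set -0.03, mean of both 0.17 with adjusted p = 0.267) and H2B.5 by 1.14 ± 0.15 (adjusted p = 0.00825). H2B.10 was higher by 0.84 ± 0.13 (adjusted p = 0.0112), a call lost without replicate 1 of submerged M202(Sub1) (adjusted p = 0.0588). CDKD-1, CYCL1-1, CYCD5-3 and H2B.7 were higher by 0.23 to 0.29, and on the spike-in scale none of these 4 was called, nor were CDKC-1 (0.19, adjusted p = 0.17) and CDKG-1 (0.12, adjusted p = 0.18). Calls of CYCT1-4, CDKC-1, CDKD-1, CYCL1-1, CYCD5-3 and H2B.7 were each lost without any 1 of 3 to 7 arrays.

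The interaction asked whether the response to submergence differed between genotypes, and 12.3% of all probe sets were called, 6.36% with the higher value in M202(Sub1) and 5.93% with the lower. Of these calls 51.8% were higher, which was 19.7% on the spike-in scale. Of the tested genes 2 cyclins, 2 kinases, 1 histone and SMR1 were called. CDKG-1 rose more in M202(Sub1) by 0.46 ± 0.06 (adjusted p = 0.0107), though its other probe set had 0.08 and was not called (mean of both 0.27, adjusted p = 0.236), and CDKD-1 by 0.32 ± 0.06 (adjusted p = 0.0307), lost without any 1 of 6 arrays (adjusted p 0.0571 to 0.0817). On the spike-in scale the values of these kinases were 0.26 (adjusted p = 0.111) and 0.11 (adjusted p = 0.421), and neither was called. The 10 transcription and splicing genes had interaction values from 0.05 to 0.46 on the deposited scale. Their median was 0.32 against 0.02 over all probe sets, and 0.11 against -0.19 on the spike-in scale. Of the 10, 2 were called on the deposited scale, where 12.3% of all probe sets were, and 0 on the spike-in scale. They were joined after their values were seen, so these medians are a description only.

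**Figure D5:**
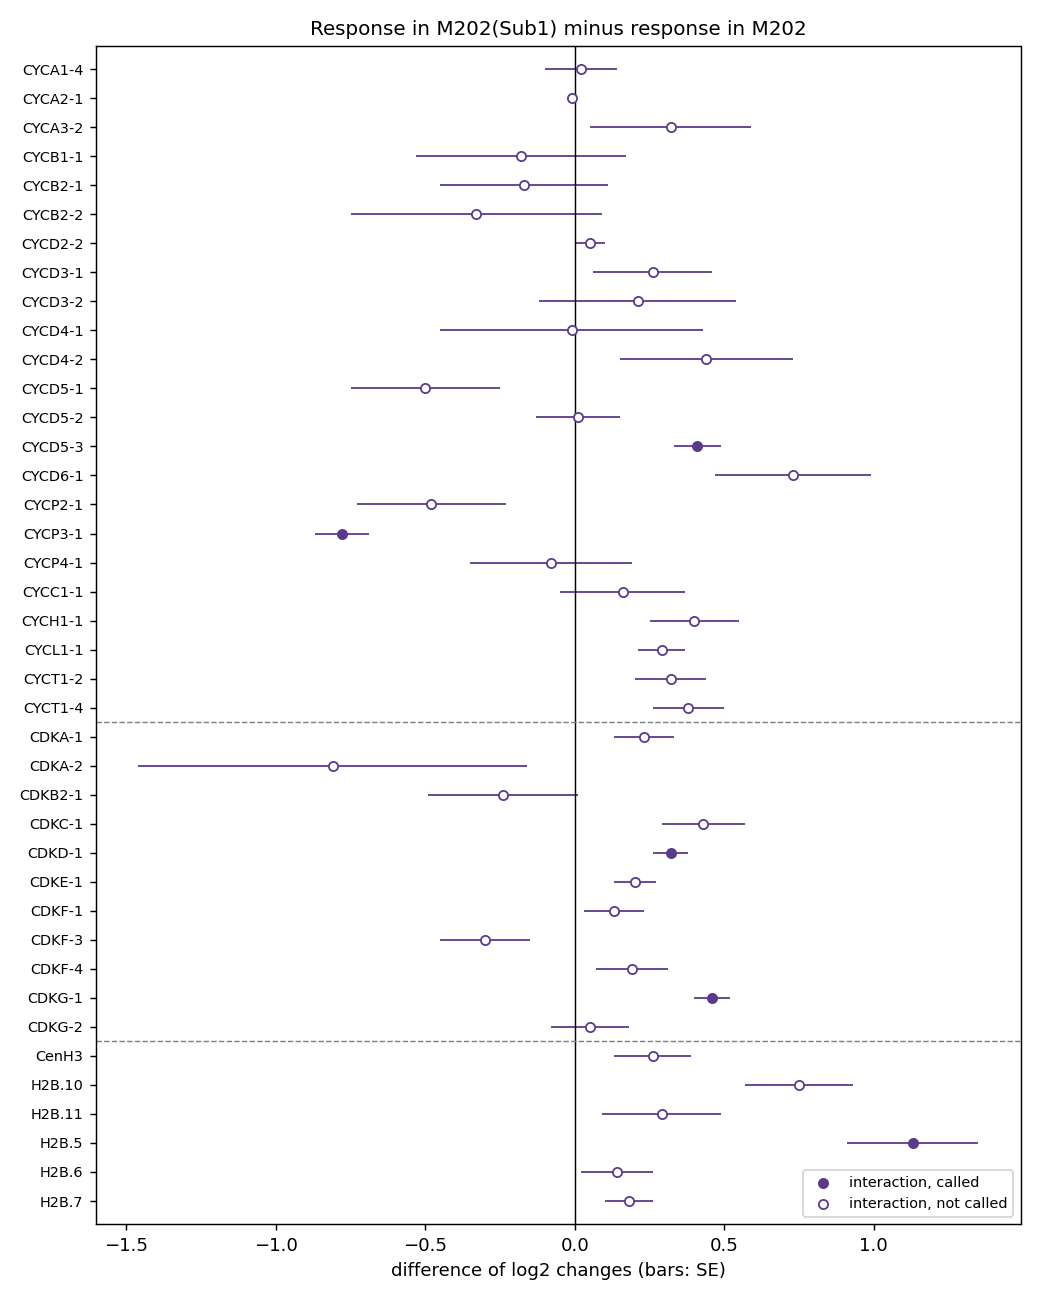
Response in M202(Sub1) minus response in M202 (horizontal axis, difference of log2 changes; bars are SE) for the 40 tested cyclins, kinases and histones, with filled points for called differences. The 5 filled points are CYCD5-3 at 0.41, CYCP3-1 at -0.78, CDKD-1 at 0.32, CDKG-1 at 0.46 and H2B.5 at 1.13.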

How the data were processed

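The authors deposited 1 log2 level per probe set and array for 8 arrays, 2 in each of 4 groups, with GCRMA and MAS5 named in the submitters' processing notes, without a role or order. The deposited values have a floor of 2.22 and reach 16.9, and 37.2% to 38.8% of each array lay at the floor. Of 57381 probe sets, 123 controls were left out, and 34355 with a mean at or above the 40th percentile (2.23) were tested. limma 3.58.1 in R 4.3.3 fitted 1 coefficient per group to all 8 arrays (lmFit, eBayes with an intensity trend; 4 residual and 0.99 prior degrees of freedom), with Benjamini-Hochberg adjustment over all tested probe sets. The script was tested on simulated data. The number of arrays limits the precision.

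Probe sets were named by the platform annotation (22436 with 1 gene, 95 with several, the latter not used) and the RefSeq table of assembly ASM3414082v1, used for names, chromosomes and gene order only. No sequence is shown, and promoter and protein features were not analysed here. Groups come from the sample labels. The 5 contrasts were submergence in each genotype, genotype in each condition, and the interaction. The alternatives tried were the filter, trend, poly(A) spike-in centring on 36 probe sets, quantile normalization, groups of the contrast only, all probe sets of a gene, replicate block and each array left out. Members and lists were chosen with earlier results of these data known. Array values are given for up to 8 called members of each class with the largest mean absolute submergence change, those called in a genotype contrast or the interaction, CenH3 and SMR1, and the member of each class with the highest mean and no call is named (CYCC1-1, CDKF-4 and H2B.11). From the list of other cell cycle genes, the called ones with the largest change are named, at most 6 for each submergence contrast and 4 for the interaction. The other KRP genes of the list are named beside KRP6. MAD6, NAP1 and OSH1 matched that list by name only and were left out.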

Additional observations from a re-analysis of the deposited data

Results flagged for a closer look

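The response to submergence differed between M202(Sub1) and M202, by the interaction test of limma, for 6 of the 41 tested genes, where 12.3% of all probe sets were called. The difference of log2 changes was 3.35 for SMR1, 1.13 for H2B.5, 0.46 for CDKG-1, 0.41 for CYCD5-3 and 0.32 for CDKD-1, all larger in M202(Sub1), and -0.78 for CYCP3-1. On the poly(A) spike-in scale CDKG-1, CYCD5-3 and CDKD-1 were no longer called.

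A second probe set paired with CDKE-1, outside the 1 used for the gene, changed by 11.03 (log2) in M202 and 11.3 in M202(Sub1), against 0.75 and 0.95 for the one used.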

How the results depend on the processing

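Of 62 called values of single genes, 32 kept their direction and call under every alternative in which they were fitted, and 30 did not. The fit with only the groups of the contrast held no interaction. The filter at a mean of at least 4 left out CenH3 and CYCD6-1. Calls were lost for 18 with only the groups of the contrast in the fit, for 18 on the poly(A) spike-in scale (4 of them with a turned sign), for 10 with no filter, for 3 with the mean of all probe sets, for 2 after quantile normalization, for 1 without a trend, for 1 at a mean of at least 4, and for 8 to 16 when 1 array was left out. Signs turned on the spike-in scale for CDKA-1 (-0.15) and H2B.6 (-0.06) after submergence in M202(Sub1), and for CDKD-1 (-0.02) and CYCL1-1 (0 after rounding) between submerged genotypes, and CYCB1-1 in M202 ran from -0.47 to 0.15 when 1 array was left out, the 0.15 without replicate 1 of non-submerged M202. CYCB1-1 fell in M202(Sub1) on the spike-in scale (-0.74, adjusted p = 0.0224). On that scale the counts called in M202(Sub1) were 17 cyclins, 2 histones and 27140 probe sets. Between genotypes they were 1 cyclin in non-submerged plants, and 1 kinase (lower) and 15784 probe sets in submerged plants, and for the interaction 1 cyclin, 0 kinases and 2 histones. With only the groups of the contrast, the counts were 0 histones in M202 and 2 in M202(Sub1), 161 probe sets between non-submerged genotypes, and 1 cyclin, 1 kinase, 0 histones and 3000 probe sets between submerged ones. With no filter they were 2 histones in M202, and for the interaction 1 cyclin, 1 kinase, 0 histones and 2650 probe sets. At a mean of at least 4 the interaction gave 1 cyclin and 2 histones, and quantile normalization gave 2 histones. With the mean of all probe sets of a gene, 5 kinases were called between submerged genotypes, CDKG-1 no longer among them, and 1 in the interaction. The cause of these moves was not tested.

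Leaving out 1 array at a time gave 1 to 3 histones in M202 and 2 to 4 in M202(Sub1). Between non-submerged genotypes it gave 0 to 2 cyclins and 395 to 1769 probe sets, and between submerged ones 1 to 3 cyclins, 1 to 2 kinases and 1 to 3 histones. For the interaction it gave 1 to 3 cyclins, 1 to 2 kinases and 0 to 2 histones.

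Same-numbered arrays of different groups deviated from their group means with correlations of 0.008 to 0.178, so the numbers were not taken as pairs. With the replicate number as a block, 10 cyclins, 6 kinases and 3 histones were called in M202, 12, 7 and 4 in M202(Sub1), and 1 cyclin, 2 kinases and 1 histone in the interaction, and 5 single calls were lost (CYCD5-3 interaction, adjusted p = 0.065, CYCH1-1 and CenH3 in M202, CDKA-1 in M202(Sub1), and H2B.7 between submerged genotypes).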
